A study of Mus musculus with 8 samples.

Results

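The genes described here are the matrix metalloproteinases (MMPs), the secreted ADAMTS proteases and the 4 tissue inhibitors of metalloproteinases (TIMPs). They were taken from the count table by gene symbol, which gave 46 of 25413 genes: 23 MMPs, 19 ADAMTS and 4 TIMPs. RNA was sequenced in 8 libraries from 3D spheroids of 2 mouse mammary lines, EpH4 (genotype WT) and its malignant counterpart EpH4-AS (genotype AS-transformed), each untreated (labelled Control) or treated with PM2.5, fine airborne particulate matter, with 2 libraries in each of 4 groups. The labels give no dose, no exposure time, no description of the AS construct and do not say if replicates were cultured separately. The p-values below therefore reflect how far these particular libraries varied, which may be technical variation alone. Of the 46 genes, 30 passed the filter on low counts and 16 did not, and those 16 reached at most 9 counts in any library.

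MMPs are zinc-dependent endopeptidases that cut collagens, other matrix proteins and many cell surface proteins. Most are made as inactive precursors, in which a cysteine of the propeptide blocks the zinc of the active site. ADAMTS proteases carry thrombospondin repeats that hold them in the matrix, where different members cut proteoglycans or trim procollagens. The TIMPs bind the active site of these enzymes and block it, and the balance of MMPs and TIMPs sets matrix turnover during mammary branching and involution.

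Levels are given as CPM, read counts scaled to library size with TMM factors, library by library in the order replicate 1, then replicate 2, or as mean ± SD (n = 2). Log2 fold changes are given ± their standard error, and adjusted p is from the edgeR quasi-likelihood test over all 13716 genes tested. Library totals were 24608176 to 27765982 counts in the 4 EpH4 libraries and 15393256 to 18334052 in the 4 EpH4-AS libraries, so a low level in EpH4-AS rests on fewer reads. The members together took 0.160 to 0.206% of all counts in a library. Both lines are labelled as mammary epithelial, but 12 epithelial markers summed to 2.04 to 9.82 CPM over the 8 libraries, with Epcam at 0 counts in EpH4 and Cdh1 at a group mean of 0.134 CPM or less. The 9 fibroblast markers summed to 2424 to 2819 CPM in EpH4, led by Dcn, Col1a2 and Pdgfra, and to 405 to 583 CPM in EpH4-AS. They did not all differ in 1 direction. Col3a1 was at a mean of 0.749 CPM in untreated EpH4 and 45.1 CPM in untreated EpH4-AS. Lum (0.589 and 3.21 CPM) and Fap (0 and 0.215 CPM) were also higher in untreated EpH4-AS, and the other markers of the list were lower. Mitochondrially encoded reads made up 2.21 to 2.72% of counts in untreated EpH4, 4.23 to 5.03% with PM2.5, and 0.219 to 0.302% in EpH4-AS. The part of these differences in the results below was not tested, and in bulk RNA fewer cells of a type cannot be told apart from less RNA per cell.

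Of the 3 tested inhibitors 1 was higher in EpH4-AS, 1 was lower and 1 was not called. Timp1, a secreted inhibitor of broad range that is induced by growth factors and cytokines (chromosome X, 20736405 to 20740974, GRCm39), was at 20.7 and 16.4 CPM in untreated EpH4 and at 286 and 276 CPM in untreated EpH4-AS. The groups were far apart: 15.1-fold higher in EpH4-AS (log2 3.92 ± 0.09, adjusted p = 1.74e-14). Timp3, the inhibitor that binds to the matrix and also blocks ADAMTS proteases, went the other way, from 42.1 and 32.6 CPM in EpH4 to 0.903 and 1.39 CPM in EpH4-AS (log2 -5.03 ± 0.22, adjusted p = 1.46e-11). Timp2, which also takes part in the activation of pro-MMP2 by MMP14, was at 504 and 410 CPM in EpH4 and 466 and 468 CPM in EpH4-AS, so the untreated groups overlapped (log2 0.03 ± 0.09, adjusted p = 0.759). Without EpH4 untreated replicate 1 the difference in Timp2 was called (log2 0.19, adjusted p = 0.0393). Timp4 had 11 counts over the 2 libraries of untreated EpH4 and 2 over those of untreated EpH4-AS and was not tested.

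**Figure D1:**
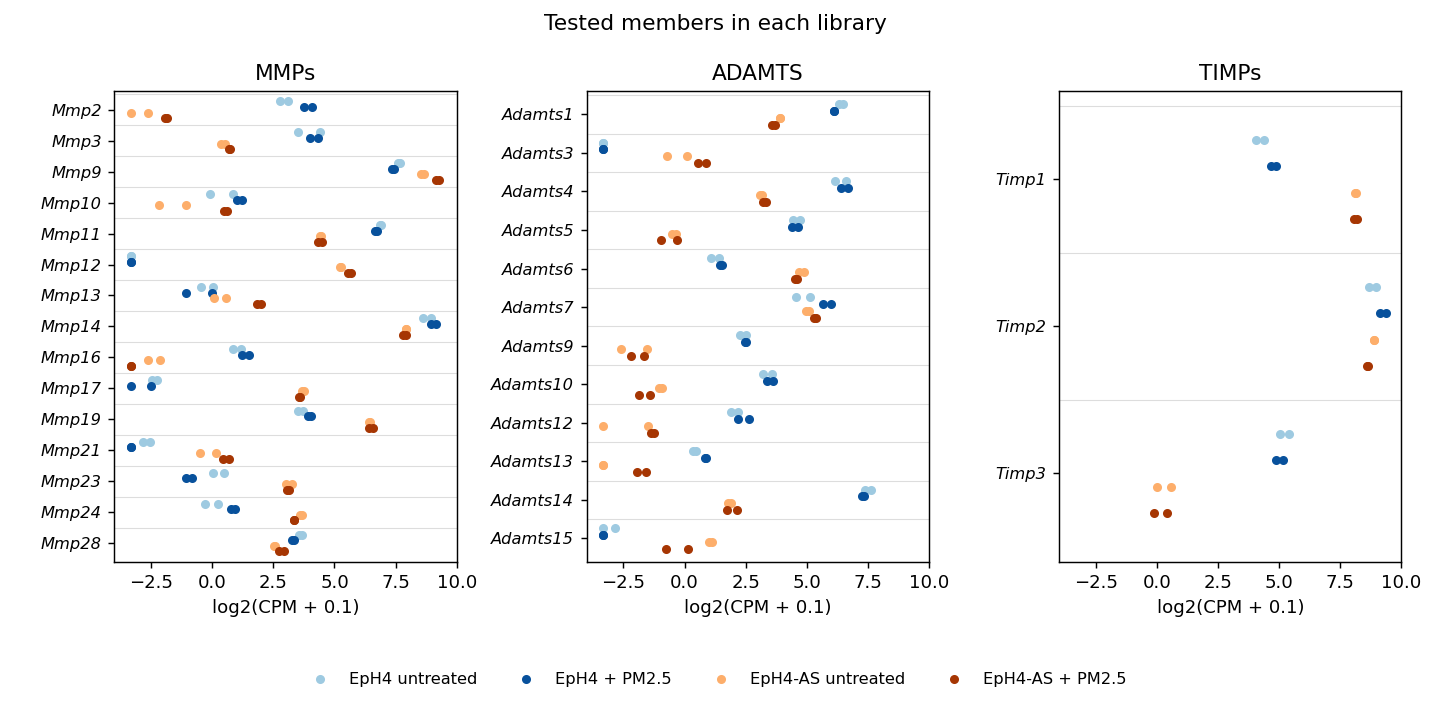
Levels of the 30 tested members in each of 8 libraries, on the scale log2(CPM + 0.1), 2 points for each group. Timp1 sits on the right in EpH4-AS and Timp3 in EpH4, while points at the left edge, such as Mmp12 in EpH4, are libraries with 0 counts.

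On the RPKM scale, which corrects for transcript length and so allows genes to be compared, the main inhibitor changed with the line. In untreated EpH4, Timp2 held 79.1 ± 0.366% of the summed RPKM of the 4 TIMPs and Timp1 15.3 ± 0.189%. In untreated EpH4-AS, Timp1 held 74.1 ± 0.601% and Timp2 25.8 ± 0.580%. The sum was 126 and 99.6 RPKM in the libraries of untreated EpH4 and 407 and 402 RPKM in those of untreated EpH4-AS. The summed RPKM of the 23 MMPs moved less, from 201 and 171 RPKM to 218 and 212 RPKM. The ratio of TIMP to MMP transcripts by RPKM was therefore 0.606 ± 0.0314 in untreated EpH4 and 1.88 ± 0.0250 in untreated EpH4-AS. This ratio counts transcripts and not protein or activity, and it was not tested. Unlike CPM, RPKM carries no TMM factors, and it ran higher in EpH4-AS at the same CPM. Mmp9 had 50.3 and 46.9 RPKM at 202 and 193 CPM in untreated EpH4. In untreated EpH4-AS it had 114 and 106 RPKM at 406 and 375 CPM. A difference as small as that of the MMP sums cannot be told apart from this shift in scale. The ratio is taken within each library and does not carry it.

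**Figure D2:**
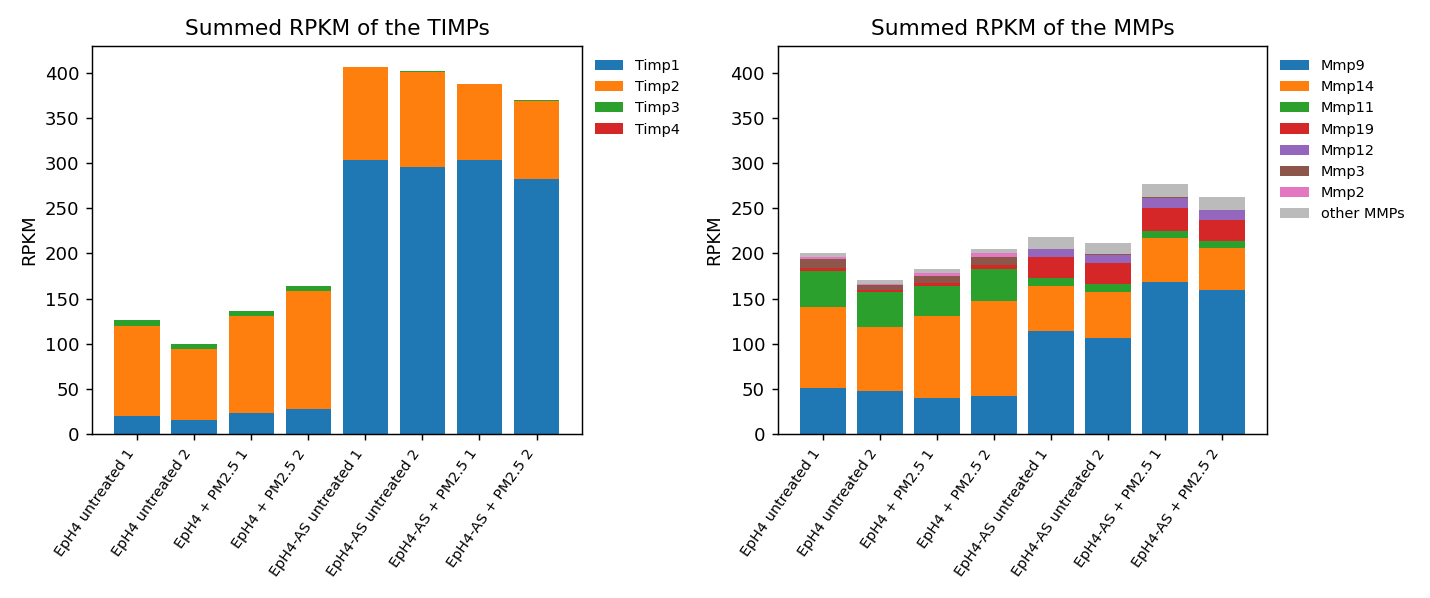
Summed RPKM of the TIMPs (left) and the MMPs (right) in each library, stacked by gene from a zero base. Timp2 fills most of the TIMP bar in EpH4 and Timp1 in EpH4-AS, and Mmp9 is the largest MMP segment in EpH4-AS, at 51.1% of the MMP sum untreated and 61.0% with PM2.5.

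Of the gelatinases, which cut denatured collagen and basement membrane collagen, Mmp9 was expressed in both lines and Mmp2 almost only in EpH4. Mmp9 (chromosome 2, 164782700 to 164797770) was at 202 and 193 CPM in untreated EpH4 and 406 and 375 CPM in untreated EpH4-AS. No library of one line reached the range of the other (log2 0.98 ± 0.06, adjusted p = 4.05e-10). Mmp2 (chromosome 8, 93553919 to 93580048) was at 8.54 and 6.68 CPM in untreated EpH4, and the untreated EpH4-AS libraries held 1 count of it in all. The ratio of the counts, EpH4 over EpH4-AS, was 248 with an exact 95% counting interval from 44.3 to 9825. The difference was called (adjusted p = 1.25e-09), but Mmp2 passed the filter through EpH4 alone, which fixed its direction.

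Among the membrane-type MMPs, which are held at the cell surface, the direction also differed by gene. Mmp14, the activator of pro-MMP2, was at 490 and 398 CPM in untreated EpH4 and 245 in both libraries of untreated EpH4-AS (log2 -0.86 ± 0.09, adjusted p = 2.01e-07). By RPKM, Mmp14 was the most abundant MMP in EpH4, at 80.6 ± 13.0, and Mmp9 in EpH4-AS, at 110 ± 5.18. Mmp17, which is anchored by a lipid tail, was at 0.109 and 0.0795 CPM in EpH4 and 12.7 and 13.3 CPM in EpH4-AS (log2 7.01 ± 0.29, adjusted p = 5.46e-12). Mmp17 passed the filter through EpH4-AS alone, which fixed its direction. Mmp24 was at 1.09 and 0.716 CPM against 12.7 and 12.1 CPM. Its opposite-strand neighbour Mmp24os1 overlaps it and had 1107 to 1473 counts in the EpH4 libraries and 393 to 512 in EpH4-AS. The library kit keeps strand, per the labels, but whether the authors counted by strand is not given in the sources used here, so reads of Mmp24 and of that neighbour cannot be told apart. Mmp16 ran against these, at 2.18 and 1.71 CPM in EpH4 and 3 counts in all in untreated EpH4-AS, but it passed the filter through EpH4 alone. Mmp15 and Mmp25 were below the filter.

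In the genome 10 MMP genes lie next to each other on chromosome 9 between 7272514 and 7699587 (GRCm39), a run of 427.1 kb in which the table lists no other gene. They are the collagenases Mmp13, Mmp1a, Mmp1b and Mmp8, the stromelysins Mmp3 and Mmp10, the metalloelastase Mmp12, the matrilysin Mmp7, and Mmp20 and Mmp27. Promoter windows from RefSeq on GRCm38.p6, 250 bases before to 50 after each annotated start, were found for 32 members, and 10 of these were in the run. The letters TGANTCA are a loose form of the site of the transcription factor AP-1, TGAGTCA or TGACTCA, and read the same on both strands. They were in at least 1 window of 8 of the 10 genes of the run and of 0 of the 22 members elsewhere. Mmp20 counts here only through TGAATCA. Counted by window, 22.9% of the 35 windows of members and 7.79% of all 32544 windows of the same length held them. The TATA box letters TATAAA, on either strand, were in 9 of the 10 and in 2 of the 22. By window they were in 31.4% of those of members and 13.6% of all. A match describes the letters and shows no binding. The 100 bases before the start are shown for the 4 tested genes of the run and for Mmp1a and Mmp7, which had 1 and 0 counts in all 8 libraries together, since these neighbours carry the same letters and differed in their counts. The capitals mark the AP-1 letters and, where it lies in the stretch, the TATA box.
Mmp13, chr9:7272414-7272513, plus strand: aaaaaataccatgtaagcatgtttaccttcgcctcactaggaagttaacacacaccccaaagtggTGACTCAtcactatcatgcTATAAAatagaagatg
Mmp12, chr9:7347274-7347373, plus strand: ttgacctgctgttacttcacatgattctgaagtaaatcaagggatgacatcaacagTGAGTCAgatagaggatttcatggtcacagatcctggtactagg
Mmp3, chr9:7445722-7445821, plus strand: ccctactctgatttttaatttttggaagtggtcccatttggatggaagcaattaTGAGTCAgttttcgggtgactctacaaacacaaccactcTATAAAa
Mmp10, chr9:7502242-7502341, plus strand: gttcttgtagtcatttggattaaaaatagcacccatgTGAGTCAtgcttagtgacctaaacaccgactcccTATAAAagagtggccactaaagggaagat
Mmp1a, chr9:7464041-7464140, plus strand: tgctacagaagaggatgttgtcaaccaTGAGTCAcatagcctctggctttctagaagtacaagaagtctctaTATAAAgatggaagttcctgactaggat
Mmp7, chr9:7691990-7692089, plus strand: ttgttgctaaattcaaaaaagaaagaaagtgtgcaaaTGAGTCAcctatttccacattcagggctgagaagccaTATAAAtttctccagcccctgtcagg
The AP-1 letters began 35 bases before the start in Mmp13, 44 in Mmp12, 46 in Mmp3, 63 in Mmp10, 73 in Mmp1a and 63 in Mmp7. For Mmp12 and Mmp7, which have 2 windows each, the window with these letters is shown.

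Of the 4 tested neighbours in this run 1 was higher in untreated EpH4-AS than in EpH4, 2 were lower and 1 was not called. Mmp12, the elastase best known from macrophages, had 0 counts in all 4 EpH4 libraries and 37.6 and 38.8 CPM in untreated EpH4-AS. It was at least 670-fold higher in EpH4-AS, taking 3 counts over the 2 EpH4 libraries as the floor (adjusted p = 1.84e-13). Mmp12 passed the filter through EpH4-AS alone, so the direction of its call was fixed. The macrophage markers Ptprc and Adgre1 had 0 counts in untreated EpH4-AS and Csf1r was at 0.152 ± 0.126 CPM. All 7 macrophage and monocyte markers summed to 38.8 to 42.2 CPM in EpH4-AS, of which Cd68 made most, and to 175 to 225 CPM in EpH4. Mmp3, the stromelysin that activates other MMPs, was high in the other line, at 21.0 and 11.3 CPM in untreated EpH4 and 1.32 and 1.202 CPM in EpH4-AS (log2 -3.67 ± 0.34, adjusted p = 7.15e-08). Mmp10 was at 1.71 and 0.835 CPM against 0.120 and 0.379 CPM (adjusted p = 0.00101). Mmp13, the main interstitial collagenase of the mouse, was at 0.909 and 0.636 CPM against 1.38 and 0.949 CPM and was not called (adjusted p = 0.183). The other 6 genes of the run stayed below the filter, and Mmp1b, Mmp8 and Mmp7 had 0 counts in every library.

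**Figure D3:**
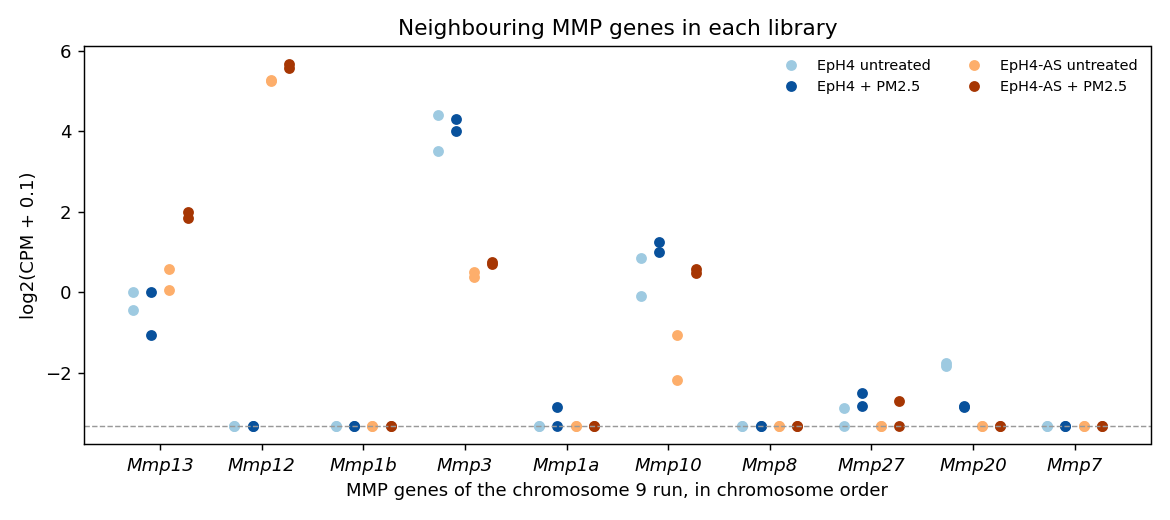
The 10 MMP genes of the chromosome 9 run in chromosome order, on the scale log2(CPM + 0.1), 2 points for each group; the dashed line is 0 counts. Mmp12 has counts in EpH4-AS only, Mmp3 is higher in EpH4, and Mmp13 and Mmp10 are each higher with PM2.5 than without in EpH4-AS.

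The remaining MMPs were divided between the lines as well. Mmp11, stromelysin 3, was at 120 and 117 CPM in untreated EpH4 and 21.5 and 21.2 CPM in EpH4-AS (log2 -2.48 ± 0.07, adjusted p = 9.53e-14). Mmp19 showed the reverse, with 13.1 and 11.3 CPM against 86.8 and 85.5 CPM (log2 2.82 ± 0.08, adjusted p = 1.62e-13). Mmp23 was 7.81-fold higher and Mmp28 2.12-fold lower in EpH4-AS. Mmp21 stayed at or below 1.01 CPM in every untreated library, with 3 counts in untreated EpH4 and 26 in untreated EpH4-AS.

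Of the 12 tested ADAMTS proteases 8 were lower in EpH4-AS and 3 higher, where 45.7% of all tested genes were lower and 43.6% higher. Of the 8, Adamts13, Adamts9, Adamts12 and Adamts10 passed the filter through EpH4 alone, which fixed their direction. Of the 3, Adamts3 and Adamts15 passed it through EpH4-AS alone, which fixed theirs. Adamts14, which removes the N-propeptide of fibrillar procollagen (chromosome 10, 61032891 to 61109217), was at 168 and 200 CPM in untreated EpH4 and 3.31 and 3.67 CPM in EpH4-AS, 52.6-fold lower (log2 -5.72 ± 0.12, adjusted p = 5.92e-15). The related Adamts2 was below the filter, and Adamts3 had 0 counts in EpH4 and 24 in untreated EpH4-AS. Of 5 tested proteoglycan-cleaving members 4 were lower in EpH4-AS. Adamts5, an aggrecanase, was at 26.3 and 21.7 CPM against 0.602 and 0.696 CPM (log2 -5.20 ± 0.22). Adamts1 was at 89.5 and 79.5 CPM against 14.8 in both libraries (log2 -2.52 ± 0.08), and Adamts4, the other main aggrecanase, at 97.4 and 70.4 CPM against 8.79 and 8.41 CPM (log2 -3.29 ± 0.16). Adamts9 had 5 counts in all in untreated EpH4-AS. Adamts15, whose direction the filter fixed, was at 1 count in untreated EpH4 and 1.93 and 2.09 CPM in EpH4-AS. Adamts7, which cuts cartilage oligomeric matrix protein, was not called without PM2.5, at 35.0 and 23.3 CPM against 33.9 and 31.4 CPM (log2 0.16 ± 0.15, adjusted p = 0.329). Adamts12 and Adamts10 were lower and Adamts6 was 11.9-fold higher in EpH4-AS. The summed RPKM of the 19 ADAMTS was 68.9 and 63.5 in the untreated EpH4 libraries and 14.8 and 14.1 in those of EpH4-AS.

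Over the untreated lines the test called 27 of 30 members, 11 higher and 16 lower in EpH4-AS, where 89.2% of all tested genes were called (43.6% higher, 45.7% lower). The share called is thus near that of all genes. Over 2-fold differences were called in 25 of the 30, against 55.2% of all tested genes. But 6 members reached 10 counts in 2 libraries of EpH4 alone (Mmp2, Mmp16, Adamts9, Adamts10, Adamts12 and Adamts13). Another 5 did so in EpH4-AS alone (Mmp12, Mmp17, Mmp21, Adamts3 and Adamts15). Such genes pass the filter only by differing. With PM2.5 in both lines 29 of 30 were called (12 higher, 17 lower), beside 89% of all genes (43.5% higher, 45.5% lower), and 26 members were called in the same direction with and without PM2.5. Mmp9 stood at 163 and 171 CPM in EpH4 with PM2.5 and 614 and 577 CPM in EpH4-AS with PM2.5, a 3.57-fold difference (log2 1.83 ± 0.06, adjusted p = 3.86e-13), set beside 1.97-fold in the untreated lines. Timp1 was 10.3-fold higher in EpH4-AS under PM2.5 (adjusted p = 5.16e-14). Timp2 was lower in EpH4-AS under PM2.5 (log2 -0.64 ± 0.09, adjusted p = 9.71e-06). Mmp13 was higher there (log2 2.52 ± 0.34, adjusted p = 5.84e-06) and Mmp10 was not called (log2 -0.62 ± 0.35, adjusted p = 0.104). Adamts7 was lower (log2 -0.50 ± 0.14, adjusted p = 0.00350), which no longer passed once replicate 2 of EpH4 with PM2.5 was left out (log2 -0.33, adjusted p = 0.0501). The calls between untreated lines held without each of the 8 libraries in turn.

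In wildtype EpH4, PM2.5 went with higher Timp1 and Timp2 transcripts and with changes of both directions among the enzymes. Timp1 rose from 20.7 and 16.4 CPM to 25.1 and 29.5 CPM, so that both exposed libraries lay above both untreated ones (log2 0.55 ± 0.10, adjusted p = 0.00134). Timp2 rose from 504 and 410 CPM to 552 and 665 CPM (log2 0.41 ± 0.09, adjusted p = 0.00391), while Timp3, at 42.1 and 32.6 CPM and then 35.8 and 29.0 CPM, overlapped (adjusted p = 0.232). With no filter on low counts Timp3 was called lower in edgeR (log2 -0.22, adjusted p = 0.0432). Of 30 tested members 13 were called, 7 higher and 6 lower, in a comparison in which 27.2% of all tested genes were called, 14.3% higher and 12.9% lower. That count of 30 includes Mmp12 and Adamts3, which had 0 counts in every EpH4 library. The median log2 change of the tested members was 0.10, and that of all tested genes 0.00.

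Mmp2 and Adamts7 changed most among the called members above 2 CPM. Mmp2 rose from 8.54 and 6.68 CPM to 13.4 and 17.0 CPM, a 1.99-fold change (log2 0.99 ± 0.15, adjusted p = 0.000313). Adamts7 rose from 35.0 and 23.3 CPM to 50.3 and 63.4 CPM (log2 0.96 ± 0.14, adjusted p = 0.000228). In both genes the exposed libraries lay above the untreated ones. The other gelatinase, Mmp9, fell from 202 and 193 CPM to 163 and 171 CPM (log2 -0.25 ± 0.06, adjusted p = 0.00662). Adamts1, a proteoglycan-cleaving protease, fell from 89.5 and 79.5 CPM to 69.2 and 70.1 CPM (log2 -0.28 ± 0.06, adjusted p = 0.00474). These 4 calls and that of Timp1 held without each of the 8 libraries in turn.

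Mmp14 and Mmp19 rose, and Mmp11, Mmp28 and Adamts14 fell, by less. Mmp14 went from 490 and 398 CPM to 501 and 572 CPM (log2 0.27 ± 0.08, adjusted p = 0.0266) and Mmp19 from 13.1 and 11.3 CPM to 14.9 and 16.5 CPM (log2 0.36 ± 0.10, adjusted p = 0.0122). The falls were log2 -0.24 ± 0.07 in Adamts14 (adjusted p = 0.0266), -0.18 ± 0.06 in Mmp11 (adjusted p = 0.0352) and -0.32 ± 0.11 in Mmp28 (adjusted p = 0.0402). All of these groups were apart, but 61% of all tested genes had groups that did not overlap here. At about 1 CPM, Mmp24 rose from 1.09 and 0.716 CPM to 1.60 and 1.81 CPM (adjusted p = 0.0159) and Mmp23 fell from 1.31 and 0.915 CPM to 0.457 and 0.370 CPM (adjusted p = 0.00725). Leaving out replicate 2 of either EpH4 group lowered the number called over all tested genes as well as over the members. Without EpH4 untreated replicate 2 the calls of Mmp24 (adjusted p = 0.137), Mmp19 (0.102), Mmp28 (0.185), Mmp14 (log2 0.13, 0.235) and Adamts14 (log2 -0.11, 0.270) were lost. Without EpH4 PM2.5 replicate 2 those of Timp2 (log2 0.27, 0.0518), Mmp24 (0.0939), Mmp23 (0.0562), Mmp19 (0.109), Mmp28 (0.204), Mmp14 (log2 0.17, 0.227), Adamts14 (0.143) and Mmp11 (0.0511) were lost, which left 5 members called. Mmp11 also lost its call without untreated replicate 1 (0.0876) or PM2.5 replicate 1 (0.182), Mmp23 without untreated replicate 1 (0.0552) and Mmp28 without PM2.5 replicate 1 (0.0677). Without either library of untreated EpH4-AS, which shares only the estimate of spread, Mmp11, Mmp28, Mmp14 and Adamts14 had an adjusted p from 0.0526 to 0.0625.

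Mmp3 and Mmp10 were not called in EpH4, and for both 1 library decided this. Mmp3 was at 21.0 and 11.3 CPM and then 16.0 and 19.8 CPM (log2 0.14 ± 0.20, adjusted p = 0.661), and Mmp10 at 1.71 and 0.835 CPM and then 1.91 and 2.26 CPM (log2 0.69 ± 0.32, adjusted p = 0.134). Untreated replicate 1 held the higher level of both genes. Without it Mmp3 had log2 0.66 (adjusted p = 0.00122) and Mmp10 log2 1.31 (adjusted p = 0.0154). Without untreated replicate 2, Timp3 was called lower (log2 -0.38, adjusted p = 0.0215). Mmp13 was at 0.909 and 0.636 CPM and then 0.381 and 0.904 CPM (adjusted p = 0.662).

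In EpH4-AS, 5 members were called with PM2.5, and the 4 that rose were MMPs. The order of the counts in the lines, 13 in EpH4 and 5 in EpH4-AS, turned to 7 and 8 when only the groups compared were fitted. Over all tested genes the order turned likewise, from 3726 and 1529 called to 2487 and 2925, so this is not particular to the members. The difference in counts was not tested. Mmp9 rose from 406 and 375 CPM to 614 and 577 CPM, with a wide gap between the groups (log2 0.61 ± 0.06, adjusted p = 1.4e-05), and the call held without each library in turn. The other 3 rises were in the chromosome 9 run: Mmp13 from 1.38 and 0.949 CPM to 3.85 and 3.47 CPM (log2 1.64 ± 0.33, adjusted p = 0.00669), Mmp10 from 0.120 and 0.379 CPM to 1.40 and 1.30 CPM (log2 2.42 ± 0.57, adjusted p = 0.0147), and Mmp12 from 37.6 and 38.8 CPM to 50.7 and 47.0 CPM (log2 0.35 ± 0.08, adjusted p = 0.0145). Mmp3, between them on the chromosome, was at 1.32 and 1.202 CPM and then 1.52 and 1.57 CPM (log2 0.29 ± 0.55, adjusted p = 0.805). The 1 fall was Adamts15, from 1.93 and 2.09 CPM to 0.992 and 0.489 CPM (log2 -1.45 ± 0.40, adjusted p = 0.0349).

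The 5 called of 30 tested members compare with 11.1% of all tested genes (6.39% higher, 4.75% lower), and the median log2 change of the tested members was 0.10, against 0.00 over all genes. The calls other than Mmp9 were lost without single libraries. Leaving out any 1 of the 4 EpH4-AS libraries also lowered the number called over all tested genes, so such losses are not particular to the members. Without 1 of the 4 EpH4-AS libraries in turn the adjusted p of Mmp12 lay between 0.0592 and 0.141, that of Mmp10 between 0.0511 and 0.174 and that of Adamts15 between 0.0516 and 0.276. Mmp13 lost its call without untreated replicate 2 (log2 1.41, adjusted p = 0.0987) or PM2.5 replicate 1 (log2 1.58, adjusted p = 0.0516), and 1 or 2 members were called in each of these 4 fits. The calls of Mmp13 and Mmp10 rest on few reads, 38 and 8 counts over the 2 untreated libraries and 130 and 48 over the 2 exposed ones.

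No inhibitor was called with PM2.5 in EpH4-AS. Timp1 was at 286 and 276 CPM untreated and 292 and 270 CPM with PM2.5 (log2 -0.00 ± 0.08, adjusted p = 1), with overlapping groups. Timp2 was at 466 and 468 CPM and then 386 and 395 CPM, and both exposed libraries were lower, but it was not called (log2 -0.26 ± 0.09, adjusted p = 0.0879). It was called when the 4 EpH4-AS libraries were fitted alone (adjusted p = 3.62e-05), with no filter (0.000105), and without each of the 4 EpH4 libraries (0.0130 to 0.0353). Timp3 was near 1 CPM in all 4 libraries. Mmp14 was at 245 in both untreated libraries and at 241 and 225 CPM with PM2.5 (adjusted p = 0.653). Adamts1 was at 14.8 in both and then at 13.0 and 11.8 CPM (log2 -0.25 ± 0.10, adjusted p = 0.127). Mmp2 had 1 count in untreated EpH4-AS and 6 with PM2.5 (adjusted p = 0.329). By RPKM the summed MMPs went from 218 and 212 to 276 and 262 with PM2.5, and the summed TIMPs from 407 and 402 to 388 and 370. The ratio of TIMP to MMP transcripts was 1.88 ± 0.0250 and then 1.41 ± 0.00244 in EpH4-AS, and 0.606 ± 0.0314 and then 0.771 ± 0.0353 in EpH4. The groups did not overlap in either line, and the ratio was higher with PM2.5 in EpH4 and lower in EpH4-AS. This was not tested, and by CPM 61% of all tested genes had groups that did not overlap in EpH4. That share was not counted for EpH4-AS, so the lack of overlap there has no such reference. In EpH4-AS, Mmp9 alone went from a mean of 110 to 164 RPKM, so the lower ratio there does not describe the MMPs in general.

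**Figure D4:**
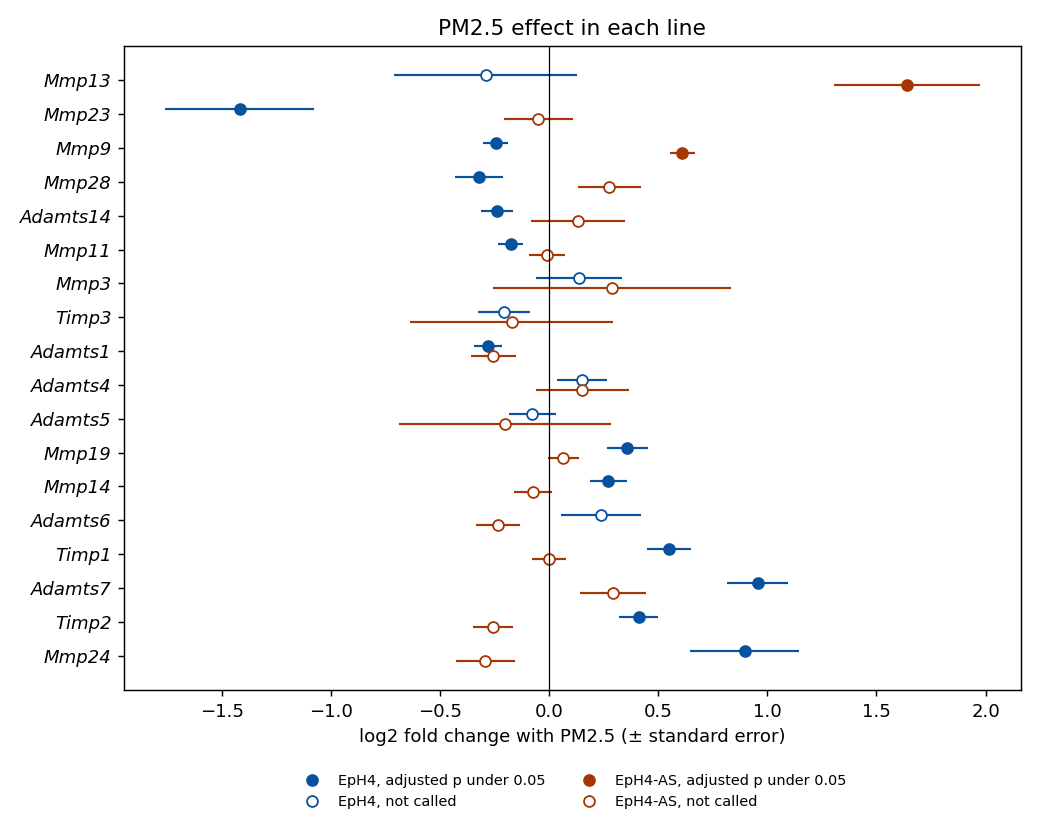
Log2 fold change with PM2.5 in EpH4 (blue) and EpH4-AS (brown) for the 18 tested members with at least 10 counts in each group, with standard errors; filled points passed an adjusted p of 0.05. Mmp9 lies below 0 in EpH4 and above 0 in EpH4-AS, and Timp1 and Timp2 lie above 0 in EpH4 only.

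The difference between the 2 responses was tested as an interaction, the PM2.5 effect in EpH4-AS minus that in EpH4, which uses the libraries of both comparisons above. It was called for 8 of 30 members, 4 in each direction, with 14.1% of all tested genes called (7.6% higher, 6.49% lower). Mmp9 was the member called in both lines in opposite directions, and its interaction was log2 0.85 ± 0.08 (adjusted p = 3.6e-05). Timp2 had the reverse sign (log2 -0.67 ± 0.13, adjusted p = 0.00356). Both calls held without each library in turn. No member was called in the same direction with PM2.5 in both lines.

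The calls of the other 6 interactions were lost without single libraries. Leaving out any 1 of the EpH4-AS libraries also lowered the number of interactions called over all tested genes. Timp1 (log2 -0.55 ± 0.13, adjusted p = 0.0110) had an adjusted p of 0.0523 without EpH4 PM2.5 replicate 2, 0.0677 without EpH4-AS untreated replicate 1 and 0.0590 without EpH4-AS PM2.5 replicate 2. Mmp24 (log2 -1.19 ± 0.28, adjusted p = 0.0127) lost its call without EpH4 untreated replicate 2 (0.0597), EpH4 PM2.5 replicate 2 (0.0567) or EpH4-AS untreated replicate 1 (0.0534). Mmp13 (log2 1.93 ± 0.54, adjusted p = 0.0292), Mmp23 (1.37 ± 0.38, 0.0272), Mmp28 (0.60 ± 0.18, 0.0402) and Adamts7 (-0.66 ± 0.21, 0.0460) each lost it in 6 of the 8 fits without 1 library, with values from 0.0504 to 0.189. Those 6 fits included all 4 without an EpH4-AS library for Mmp13, Mmp28 and Adamts7. For Mmp23 the call held without EpH4 untreated replicate 2 and without EpH4-AS untreated replicate 1. Mmp10 was not called (log2 1.73 ± 0.68, adjusted p = 0.111) but was without EpH4 untreated replicate 2 (log2 2.14, 0.0304) and with no filter (log2 1.75, 0.0290). Mmp14 (log2 -0.35 ± 0.12, adjusted p = 0.0719) was called without EpH4 untreated replicate 1 (log2 -0.50, 0.000941) or EpH4 PM2.5 replicate 1 (log2 -0.44, 0.0218), and also by DESeq2 (log2 -0.36, 0.0371) and with no filter (log2 -0.33, 0.000519). Adamts1 had log2 -0.28 ± 0.06 in EpH4 and -0.25 ± 0.10 in EpH4-AS, with an interaction of log2 0.03 ± 0.12 (adjusted p = 0.938). Mmp12 and Adamts3 had 0 counts in EpH4, so their difference between the lines could not be estimated. Timp3 had log2 0.04 ± 0.50 and Mmp3 log2 0.15 ± 0.58, wide errors at the few counts these genes have in EpH4-AS.

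A list of 44 other genes of pericellular proteolysis was read in the same fit, of which 31 were tested. With PM2.5, 12 were called in EpH4 (6 higher, 6 lower) and 12 in EpH4-AS (8 higher, 4 lower). These are 38.7% of the 31 in each line, beside 27.2% of all tested genes in EpH4 and 11.1% in EpH4-AS. Bmp1, which removes the C-propeptide of procollagen, rose in both lines, from 36.6 ± 3.51 to 54.0 ± 5.07 CPM in EpH4 and from 139.6 ± 0.318 to 187 ± 3.90 CPM in EpH4-AS. Bsg, an inducer of MMP synthesis, fell in both (log2 -0.36 ± 0.06 and -0.30 ± 0.06). In EpH4-AS fewer of these genes, and fewer of all tested genes, were called when any 1 of its 4 libraries was left out. The call of Bsg was lost in each of those 4 fits.

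Plau, the urokinase that activates plasminogen and so MMP precursors, rose in EpH4 from 29.1 ± 3.58 to 45.5 ± 2.35 CPM (adjusted p = 0.000227). In EpH4-AS it was at 3.14 ± 0.152 and 2.74 ± 0.735 CPM (adjusted p = 0.666). Its receptor Plaur was not called with PM2.5 in either line (adjusted p = 0.908 and 0.283). Reck, a membrane-anchored inhibitor of MMPs, fell in EpH4 (log2 -0.26 ± 0.09, adjusted p = 0.0401), a call that was lost in 7 of 8 fits without 1 library, and had log2 -0.17 ± 0.09 in EpH4-AS (adjusted p = 0.250). Between the untreated lines 30 of the 31 were called, 15 in each direction, where 89.2% of all tested genes were called (43.6% higher, 45.7% lower). Plau was 9.25-fold lower in EpH4-AS (log2 -3.21 ± 0.15) and Plaur 2.53-fold lower. Hpse, the heparanase that cuts heparan sulfate, was at 0.111 ± 0.1004 CPM in EpH4 and 51.1 ± 2.37 CPM in EpH4-AS (log2 8.74 ± 0.20, adjusted p = 9.75e-15).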

How the data were processed

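Polyadenylated RNA of 8 libraries was sequenced in 1 batch, per the labels. The authors deposited raw counts of reads per gene on GRCm39, per the submitters' processing notes, and RPKM values, counts scaled to exon length and library reads, per the file headers. The deposited tables per library also hold total gene reads, which include reads outside exons. Aligner, counting tool, strand setting and annotation: not given in the sources used here.

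Members were taken by gene symbol. Members and gene lists were chosen with earlier results of these data known. Counts of 13716 genes passing filterByExpr received TMM factors, and a quasi-likelihood model with 1 mean per group (4 residual degrees of freedom) was fitted in edgeR 4.0.16 under R 4.3.3. P-values were two-sided and adjusted over all tested genes per comparison by Benjamini-Hochberg, with a threshold of 0.05. Standard errors were derived as the absolute log2 fold change divided by root F. The fit was tested on simulated data. Full statistics were given for at most 12 called members per comparison whose larger group mean reached 2 CPM, and for 11 members always named. Folds against a group with 0 counts used 3 counts over the group. Counting intervals cover counting error only. DESeq2 1.42.0 and limma 3.58.1 on log2(RPKM + 1) served as alternatives, beside other scalings and filters, a replicate block, fits of 2 groups and leaving out each library. A gene of the proteolysis list is not reported here by name.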

Additional observations from a re-analysis of the deposited data

Results flagged for a closer look

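A difference in the PM2.5 effect between the 2 lines was called, by the test of the interaction itself, in 8 members, beside 14.1% of all tested genes. As log2 values of the effect in EpH4-AS minus that in EpH4, these were Mmp13 at 1.93, Mmp23 at 1.37, Mmp9 at 0.85, Mmp28 at 0.60, Timp1 at -0.55, Adamts7 at -0.66, Timp2 at -0.67 and Mmp24 at -1.19. Only Mmp9 and Timp2 kept the call without each library in turn. Mmp23 and Mmp24 had their PM2.5 call in EpH4 at levels near 1 CPM, with 59 counts of Mmp23 and 48 of Mmp24 over the 2 untreated libraries and 21 and 86 over the 2 exposed ones.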

How the results depend on the processing

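With PM2.5 in EpH4, 13 members were called, against 7 when only the 2 groups compared were fitted and 5 to 14 without 1 library. With PM2.5 in EpH4-AS, 5 were called, against 1 by DESeq2, 8 with no filter and 8 when only the groups compared were fitted. Over all genes tested in each fit these counts were 1529, 1071, 1986 and 2925, so the shifts are not particular to the members. In both lines the counts of members and of all genes also moved without 1 library. The interaction gave 8, and 3 to 8 without 1 library. Between the lines the counts were 27 to 29 untreated and 28 to 29 with PM2.5 without 1 library. For the other genes of pericellular proteolysis the count with PM2.5 in EpH4-AS was 12 and went from 3 to 12 without 1 library. Their interaction count was 3, 5 with no filter and 1 to 5 without 1 library. The interaction of Mmp2 reversed with limma on log2(RPKM + 1), from log2 1.26 (adjusted p = 0.591) to -0.68 (adjusted p = 0.0255). In EpH4-AS, Mmp2 was at a mean of 0.0098 RPKM untreated and 0.0509 RPKM with PM2.5, far below the 1 RPKM added. In EpH4 the means were 2.05 and 4.09 RPKM, and the cause of the reversal was not tested. Of the other values of named members under an alternative, 1132 kept their call status, 88 lost the call and 18 gained it.

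Libraries share replicate numbers across groups, but the differences between replicates correlated at -0.101 to 0.0646 between groups, so no pairing by number was visible. This cannot show whether libraries of the same number were cultured or prepared together. A replicate block gave 11 members with PM2.5 in EpH4, 4 in EpH4-AS and 6 for the interaction, and 27 and 29 between the lines. With the EpH4 numbers crossed, chosen after seeing the data, the block gave 13 in EpH4. With 2 libraries a group, few counts limit what can be told of Mmp10, Mmp13 and Mmp23.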

Other observations

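Adamts17, Adamts3 and Adamts12 had most of their gene reads outside exons in EpH4-AS. Adamts17 had 0 exon counts in every library, but its gene reads came to 1070 in EpH4-AS untreated and 1257 with PM2.5. The EpH4 groups held 11 and 19 of them. Adamts3 had 1004 gene reads in untreated EpH4-AS, of which 97.6% lay outside exons, and 7 gene reads in untreated EpH4. Adamts12, whose exon counts were lower in EpH4-AS, had 84 gene reads there with 95.2% outside exons, against 267 with 19.9% in untreated EpH4. Over all genes this share was 3.39 to 3.59% in the EpH4-AS libraries and 11.3 to 12.5% in EpH4. For Mmp9 it was 0.550% and 0.601% in EpH4-AS without and with PM2.5.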
